A study of Mus musculus with 18 samples.

Results

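The comparison addressed here is the loss of DNA-PKcs in G2-arrested cells whose CtIP already carries the A/A alleles. Its members are all 8132 junctions of 4 libraries, chosen by their labels alone, out of 30937 junctions in the 12 libraries with junction tables. Of these 4 libraries, 2 are labelled CtIP A/A and 2 are labelled CtIP A/A DNA-PKcs -/-.

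The cells were mouse precursor B cells of strain 129, immortalised with the v-abl oncogene, and each culture carried an integrated pMX-INV recombination substrate. Both genotypes share the CtIP A/A alleles, in which a phosphorylation site of the ATM and ATR kinases is replaced, and differ in the presence of DNA-PKcs. They were held in STI571 (3 µM), an Abl kinase inhibitor that arrests such cells in G1 and switches on the RAG nuclease, for 24 h, and then moved to the CDK1 inhibitor RO3306 (10 µM) for 48 h to gather them in G2. The labels do not say whether the 2 libraries of a genotype came from separate lines, clones or cultures, so the spread between them may be technical.

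RAG cuts beside a conserved heptamer and leaves a blunt signal end and a coding end that is sealed as a hairpin. In classical non-homologous end joining, DNA-PKcs works with the nuclease Artemis to open that hairpin, after which the end may be trimmed, receive added nucleotides and be ligated to its partner. CtIP promotes the resection of broken ends, and ends that escape classical joining can be joined through short stretches of shared bases or to breaks elsewhere in the genome.

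In HTGTS, a method that sequences translocations across the whole genome, a primer beside 1 coding end (the bait) is extended through the junction, and the sequence joined to that end is called the prey. Each junction was first placed by its prey. A coding join lay on the substrate, on the strand and side of the partner coding end, up to 1000 bp from it. A telomere-repeat junction held at least 3 exact telomere units in its prey alignment. All other genome junctions form the group called genome joins below.

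Depth was the number of junctions, 535 and 586 in the CtIP A/A libraries and 4170 and 2841 in the double mutants (replicates 1 and 2 in this order throughout). The coding joins numbered 261, 289, 330 and 672. At these depths a class with no junction in a library could still hold up to 0.561%, 0.512%, 0.0719% and 0.106% of its junctions, the limit that a count of 0 allows, which covers counting error only. A 2 against 2 design has 6 arrangements, so its exact two-sided permutation p cannot go below 0.333, and no single measure could pass 0.05. For that reason every library's value is given for each measure, with the range of the 4 library-by-library differences for the main ones. Some alternative counts are given as means only. Of 19 measures, 17 had no overlap between the genotypes (exact permutation p = 0.333, Benjamini-Hochberg adjusted p = 0.373 for each). The other 2 overlapped. Replicate 1 of each genotype was sequenced in 1 run and replicate 2 in another. The within-run differences of the 17 measures have the same sign in both runs. That follows from the absence of overlap and is no separate check.

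Without DNA-PKcs the bait end was joined far less often to its own substrate and far more often to telomere repeats. The substrate received 65.98% (95% Wilson interval 61.9 to 69.9) and 63.5% (59.5 to 67.3) of junctions in CtIP A/A cells. In the double mutants it received 10.98% (10.1 to 11.97) and 32.4% (30.7 to 34.1). Both double-mutant libraries lay below both CtIP A/A libraries. The means were 64.7% ± 1.77 (SD, n = 2) and 21.7% ± 15.1 (SD, n = 2). The substrate share was therefore lower by between 31.1 and 55.0 percentage points, depending on the pair of libraries, with -55.0 points within the first run and -31.1 within the second.

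Telomere repeats made up 53 of 535 junctions (9.91%) and 23 of 586 (3.92%) in CtIP A/A cells. They made up 3198 of 4170 (76.7%) and 1090 of 2841 (38.4%) in the double mutants. The groups did not overlap, and the double-mutant libraries differed from each other more than the CtIP A/A libraries did. The means were 6.92% ± 4.23 (SD, n = 2) and 57.5% ± 27.1 (SD, n = 2), a difference of 50.6 percentage points with a range of 28.5 to 72.8 over the pairs (66.8 within the first run and 34.4 within the second). Among the junctions that were not telomere-repeat joins, the substrate held a mean of 69.7% in CtIP A/A cells and 49.8% in the double mutants, a difference of -19.8 points.

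Genome joins without telomere repeats made up 24.1% and 32.6% of junctions with DNA-PKcs and 12.3% and 29.3% without it. Here the 2 genotypes overlapped, since the second double-mutant library lay between the CtIP A/A libraries.

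**Figure D1:**
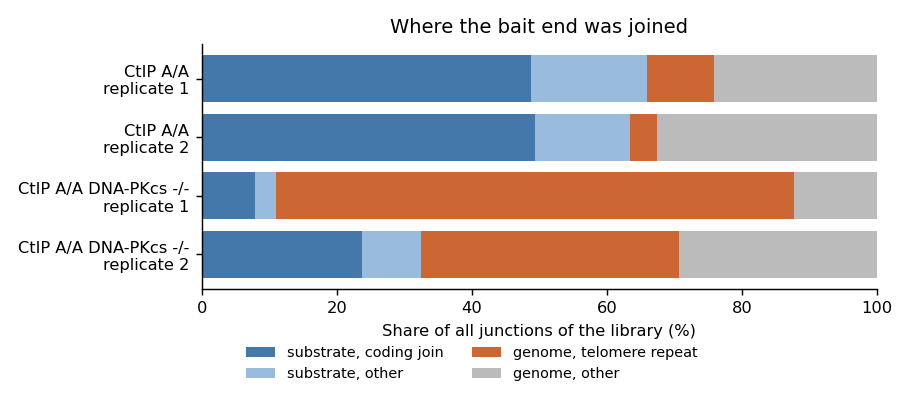
Share of all junctions of each library (horizontal axis, %) whose prey was a coding join, another place on the substrate, a telomere repeat or other genome sequence. The telomere-repeat block takes 76.7% and 38.4% of the double-mutant bars and 9.91% and 3.92% of the CtIP A/A bars.

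Within the substrate, coding joins were the main class in every library, at 73.9% and 77.7% of substrate junctions with DNA-PKcs and 72.1% and 73.0% without it. Joins onto the inverted bait, whose prey aligned to the bait segment in the opposite orientation, made up 8.78% and 8.60% against 6.77% and 4.57%. How these alignments arose was not tested. The bait's own signal side received 3.12% and 1.88% against 5.68% and 6.96%, and the groups did not overlap. Hybrid joins, in which a coding end is joined to the partner's signal side, made up 1.13% and 1.08% with DNA-PKcs. They made up 1.53% (7 of 458) and 8.48% (78 of 920) in the double mutants. The 2 double-mutant libraries thus differed more from each other in hybrid joins than the first of them differed from the CtIP A/A libraries.

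Deletion was measured separately at the bait and at the partner end. The reference point at each end was the most frequent end position over the 12 libraries, each weighted equally. Substrate positions are numbered here from the heptamer border, so that base 1 is the first coding base and bases 0 and below lie in the heptamer. On this scale the reference points were base 5 at the bait and base -1 at the partner. An end that kept more bases than its reference point counts as a deletion of 0 bp. The heptamer read CACAGTG from the coding side in 257 of 293 reads that crossed it at the bait and in 63 of 64 at the partner.

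Coding joins of the double mutants had lost more bases at both ends. The median partner deletion was 5 and 6 bp in CtIP A/A cells and 18 and 17 bp in the double mutants. The median bait deletion was 0 bp in both CtIP A/A libraries and 14.5 and 11 bp in the double mutants. At either end, each double-mutant median was above each CtIP A/A median. The upper tail was longer as well. The 90th percentile of the partner deletion was 18 and 20 bp against 64.1 and 46 bp, and that of the bait deletion was 18 and 16.2 bp against 73 and 48.8 bp.

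Partner deletions over 20 bp were found in 8.05% (21 of 261) and 9.69% (28 of 289) of coding joins with DNA-PKcs. Without it they were found in 42.7% (141 of 330) and 33.0% (222 of 672). The means were 8.87% ± 1.16 and 37.9% ± 6.85 (SD, n = 2 each), a difference of 29.0 points with a range of 23.3 to 34.7. The groups were well apart, and the spread within the double mutants was the larger one.

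Bait deletions over 20 bp were found in 7.66% (20 of 261) and 7.27% (21 of 289) with DNA-PKcs and in 39.7% (131 of 330) and 29.5% (198 of 672) without it. The difference was 27.1 points, with a range of 21.8 to 32.4. As at the partner end, the first double-mutant library had the larger share.

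Joins that kept both ends within 5 bp of the reference points made up 44.1% (115 of 261) and 43.3% (125 of 289) of coding joins in CtIP A/A cells. They made up 10.3% (34 of 330) and 9.08% (61 of 672) in the double mutants, which is 34.0 points lower. Both ends had lost over 20 bp in 3.07% and 5.54% of coding joins with DNA-PKcs and in 27.3% and 15.3% without it. Partner deletions over 200 bp were rare throughout. There were 0 of 261 and 1 of 289 with DNA-PKcs and 9 of 330 and 15 of 672 without it.

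The balance between the ends differed less. Counted from the reference points, the partner deletion was the larger in 62.5% and 64.0% of coding joins with DNA-PKcs and in 59.1% and 58.8% without it. The bait end had lost more in 25.7% and 20.8% against 36.1% and 37.1%, and these groups did not overlap.

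**Figure D2:**
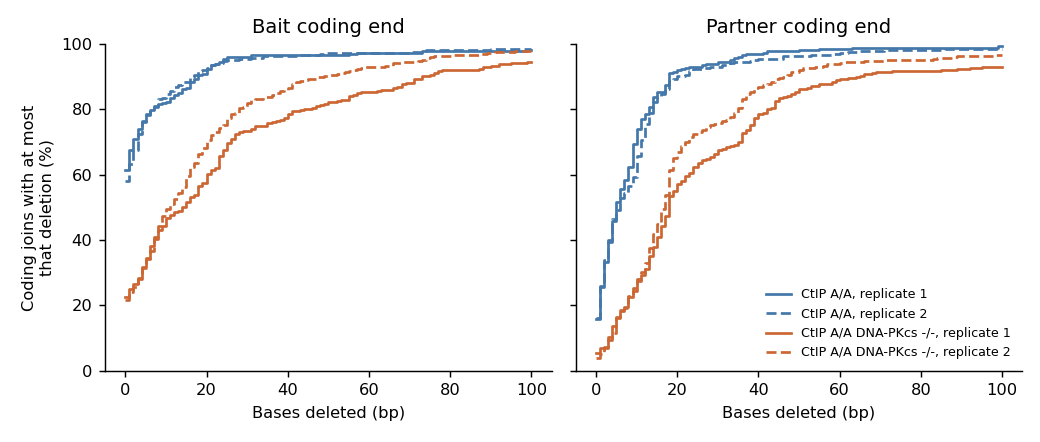
Cumulative share of coding joins (vertical axis, %) by bases deleted at the bait end and at the partner end (horizontal axes, bp), 1 line per library. The CtIP A/A lines pass the middle at medians of 0 bp (bait) and 5 or 6 bp (partner), and the double-mutant lines at 11 or 14.5 bp and 17 or 18 bp.

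The use of single substrate positions was tested with limma on log2(share of coding joins in percent + 0.25). It covered the 71 positions with at least 10 coding joins over the 4 libraries, out of 256 positions with any, and 27 of 71 differed at an adjusted p below 0.05 (38.0%). Joins of all 4 libraries were summed for this filter, and the double mutants had more coding joins. A position could therefore pass through the double mutants alone, so rises from a low share were more readily tested than falls to one. A fold change on this scale understates the change of a position with a low share. Of the 71 positions, 12 were higher without DNA-PKcs (16.9%) and 15 were lower (21.1%). At the partner end 9 of 35 positions rose and 7 fell, and at the bait end 3 of 36 rose and 8 fell. The positions are not independent of each other, because the shares of an end sum to the whole and every coding join gives both a partner and a bait position.

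The positions that fell lay at the heptamer border, at partner bases -2 to 3 and 9 and at bait bases 0 to 7. Partner base 0 held 9.96% and 9.69% of coding joins with DNA-PKcs and 1.52% and 1.34% without it. Its log2 change was -2.59 (SE 0.217, limma adjusted p = 0.00118). Partner base -1, the most used partner position, held 12.3% and 12.1% against 4.55% and 3.57% (log2 change -1.54, limma adjusted p = 0.00236). Partner base 1, the first coding base, held 7.66% and 7.96% against 0.303% and 1.79% (log2 change -2.93, limma adjusted p = 0.0152). At each of these 3 positions the CtIP A/A libraries agreed closely and both double-mutant libraries were lower.

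At the bait end, base 4 held 9.20% and 7.96% of coding joins with DNA-PKcs and 1.82% and 1.49% without it (log2 change -2.22, SE 0.233, limma adjusted p = 0.00118). Bait base 5, the most used bait end, held 11.5% and 9.34% against 2.73% and 3.42% (log2 change -1.68, limma adjusted p = 0.00236). Bait bases 1, 2 and 3 held between 7.96% and 9.20% in CtIP A/A cells and between 2.12% and 3.03% in the double mutants. Bait base -1, inside the heptamer, held 4.21% and 5.19% against 5.45% and 4.32%, which overlapped (log2 change 0.05, limma adjusted p = 0.834). It was the most used bait position of the double mutants.

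The positions that rose lay deeper in the coding flanks, between bases 15 and 43 at the partner and at bases 20, 31 and 46 at the bait. Partner base 17 held 3.83% and 2.42% of coding joins with DNA-PKcs and 6.06% and 7.59% without it, the highest share of any partner position in the double mutants. Its log2 change was 1.09 (SE 0.280, limma adjusted p = 0.0264). Partner base 15 held 0% and 1.04% against 3.33% and 4.61% (log2 change 2.88, limma adjusted p = 0.0420). Partner base 35 held 0.383% and 0% against 2.73% and 2.68% (log2 change 2.89, limma adjusted p = 0.0188). At each of these sites both double-mutant libraries were above both CtIP A/A libraries.

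Some deep positions had no coding join at all in either CtIP A/A library. Against a floor of 3 joins over both libraries together (0.545%), partner base 43 was at least 2.90-fold higher in the double mutants, with shares of 2.12% and 1.04%. Bait base 31 was at least 2.20-fold higher (1.21% and 1.19%), and bait base 46 at least 1.92-fold higher (0.909% and 1.19%). The limma adjusted p was 0.00272 for partner base 43 and 0.00118 for each bait base. These positions passed the filter on joins of the double mutants alone. Without any join, both CtIP A/A libraries had the same value on the tested scale, so no spread between them entered the test. The adjusted p values are therefore not taken as support for these rises.

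When 1 double-mutant library was left out, the number of positions called went from 27 to 14 (without replicate 1) and 13 (without replicate 2). All of those calls were among the 27. Among the positions named, the rises at partner bases 15, 17 and 35 and at bait base 20 (0.383% and 0% against 1.52% and 3.27%) were called in neither case. Nor were the falls at partner base -2 (3.07% and 3.11% against 0.606% and 0.149%) and bait base 5, while the direction at every one of the 27 positions stayed the same.

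Coding joins of the double mutants carried fewer and shorter insertions. An insertion, meaning read bases between the bait and prey alignments, was present in 68.6% (179 of 261) and 66.8% (193 of 289) of coding joins with DNA-PKcs. It was present in 21.5% (71 of 330) and 33.2% (223 of 672) without it. The means were 67.7% ± 1.27 and 27.3% ± 8.25 (SD, n = 2 each), and the difference of -40.3 points ranged from -47.1 to -33.6 over the pairs. Both double-mutant libraries lay well below the CtIP A/A libraries, with the first the lower of them.

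Where bases had been inserted, the median length was 3 bp in each CtIP A/A library and 2 bp in each double-mutant library. Insertions over 3 bp made up 26.1% and 32.5% of coding joins with DNA-PKcs and 4.85% and 7.44% without it. Insertions of 7 to 10 bp made up 7.66% and 9.34% against 0.303% (1 of 330) and 1.19% (8 of 672). The longest insertion measured 28 and 23 bp in CtIP A/A cells and 12 and 14 bp in the double mutants.

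The G and C content of the inserted bases overlapped between the genotypes, although the share of each single base did not. G and C together made up 66.2% and 68.0% of inserted bases with DNA-PKcs and 69.0% and 67.1% without it. Inserted A made up 15.1% and 15.95% with DNA-PKcs and 17.4% and 18.3% without it, and inserted T 18.8% and 16.1% against 13.6% and 14.6%. Terminal deoxynucleotidyl transferase, the enzyme that adds untemplated bases at V(D)J joins, is known to favour G and C.

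Direct joins, with neither insertion nor shared bases, and joins with microhomology took up the difference. Direct joins made up 15.3% and 15.6% with DNA-PKcs and 33.6% and 36.01% without it, a difference of 19.4 points with little spread in either group. Microhomology, 1 or more bases that fit both sides, was present in 16.1% and 17.6% against 44.8% and 30.8%. That difference was 20.96 points, with a range of 13.2 to 28.8. A single shared base accounted for most of that difference, at 8.43% and 8.997% against 25.2% and 19.2%.

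Homology of 4 bp or more made up 2.68% and 2.08% of coding joins with DNA-PKcs and 4.24% and 3.13% without it. These shares rest on 7 and 6 joins against 14 and 21 joins, and their Wilson intervals overlap. Among joins without an insertion, microhomology was present in 51.2% and 53.1% with DNA-PKcs and in 57.1% and 46.1% without it. With the inserted joins set aside the groups overlapped, and the mean difference was -0.550 points. The higher share of microhomology among all coding joins therefore went with the lower share of insertions.

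The kind of joint also varied with the size of the deletion. In joins with both ends within 5 bp, insertions were present in 73.9% and 68.0% with DNA-PKcs and in 47.1% (16 of 34) and 59.0% (36 of 61) without it. In joins with 1 end deleted by over 20 bp they were present in 68.0% (17 of 25) and 58.8% (10 of 17) against 16.3% (15 of 92) and 20.6% (44 of 214). Within both deletion classes the double mutants lay below CtIP A/A cells. With both ends deleted by over 20 bp the CtIP A/A libraries held only 8 and 16 joins, of which 2 and 4 had an insertion, against 3 of 90 and 16 of 103.

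**Figure D3:**
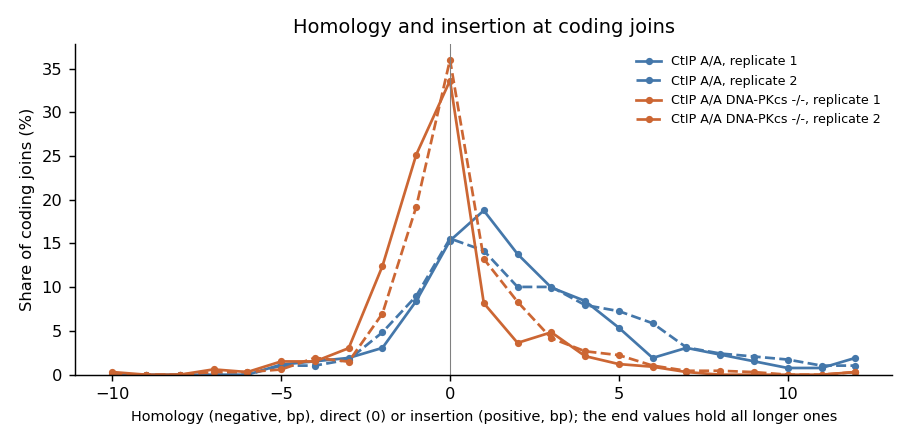
Share of coding joins (vertical axis, %) by homology length (negative values, bp), direct joining (0) and insertion length (positive values, bp), 1 line per library, with longer values collected at the ends. The double-mutant lines peak at 0 (33.6% and 36.01%) and lie lower than the CtIP A/A lines at insertions of 2 bp and more.

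Telomere-repeat joins ran almost without exception in 1 orientation. The prey was read as the C-rich strand, with the unit CCCTAA, in 53 of 53 and 23 of 23 lines with DNA-PKcs and in 3195 of 3198 and 1084 of 1090 without it. The median number of exact units in the alignment was 7, 6, 7 and 6. Since the repeat is the same at every chromosome end, the chromosome to which such a read was assigned says nothing of its origin.

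Lines that repeated the bait end, prey position, prey strand and inserted bases of another line were rare among telomere joins, at 0% and 0% with DNA-PKcs and 0.469% (15 of 3198) and 1.38% (15 of 1090) without it. That count uses the prey position, which says nothing of origin in a repeat, and can miss copies. A coarser count merged lines that shared their bait end and the next 12 bases of the read. It left 25 and 17 distinct combinations with DNA-PKcs and 729 and 234 without it, or 2.12 and 1.35 lines for each combination against 4.39 and 4.66 lines. The repeat unit has 6 bases, so few sets of following bases exist for each bait end and separate joins come to share them as lines increase. The coarser count can therefore merge separate joins, and it shrinks the libraries with more telomere lines further by its construction. How many lines were copies of 1 join was not tested. With each combination counted once, telomere repeats made up a mean of 4.23% of junctions with DNA-PKcs and 28.3% without it, a difference of 24.1 points in place of 50.6. For this share the other junctions were merged in the same way. The second mean stands for double-mutant libraries that differed widely, with 729 and 234 telomere combinations. In the second double-mutant library a single bait end, 77 bp from the reference point, held 362 telomere lines (33.2%). These 362 lines carried 35 different sets of following bases.

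At the bait end of telomere joins the share with over 20 bp deleted overlapped between the genotypes. Such deletions were present in 79.2% and 39.1% with DNA-PKcs and in 60.5% and 53.8% without it. The CtIP A/A values, from 53 and 23 lines, lay on either side of the double-mutant values (exact permutation p = 1). Deletions of 21 to 100 bp did not overlap, with 5.66% and 26.1% against 39.2% and 52.8%. Nor did bait ends that read past the heptamer, with 6 of 53 (11.3%) and 4 of 23 (17.4%) against 2 of 3198 (0.0625%) and 2 of 1090 (0.183%). These CtIP A/A shares rest on 3 and 6 lines and on 6 and 4 lines. Insertions, with each combination of bait end and following bases counted once, were present in 52.0% and 29.4% against 41.6% and 52.6%, and overlapped.

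Genome joins differed in the state of the bait end, and in the opposite direction to coding joins. The median bait deletion of genome joins was 119 and 105 bp in CtIP A/A cells and 23 and 15 bp in the double mutants. The bait alignment starts at a fixed substrate position, and no bait deletion given here can reach past it. Deletions over 100 bp are therefore capped by the position of that start and are not free measures of resection length. With DNA-PKcs the genome joins fell into separate classes. There were 36 of 129 (27.9%) and 57 of 191 (29.8%) within 5 bp, 0 of 129 and 0 of 191 between 6 and 20 bp, and 82 of 129 (63.6%) and 107 of 191 (56.0%) over 100 bp. A count of 0 allows up to 2.33% and 1.57% of genome joins in these libraries. Without DNA-PKcs the range from 6 to 20 bp was filled, with 100 of 514 (19.5%) and 165 of 831 (19.9%). Deletions over 100 bp then made up only 16.9% and 19.0%. Genome joins with exactly 2 telomere units are counted here, a mean of 4 per library with DNA-PKcs and 134 without it. These size classes were not counted without them.

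Bait deletions over 20 bp made up 72.1% and 70.2% of genome joins with DNA-PKcs and 52.1% and 43.6% without it, a difference of -23.3 points with a range of -28.5 to -18.0. A bait end that reads past the heptamer counts here as a deletion of 0 bp. Such ends made up 2 of 129 and 9 of 191 genome joins with DNA-PKcs and 5 of 514 and 11 of 831 without it. Among the remaining genome joins the shares over 20 bp were 73.2% and 73.6% against 52.7% and 44.1%.

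**Figure D4:**
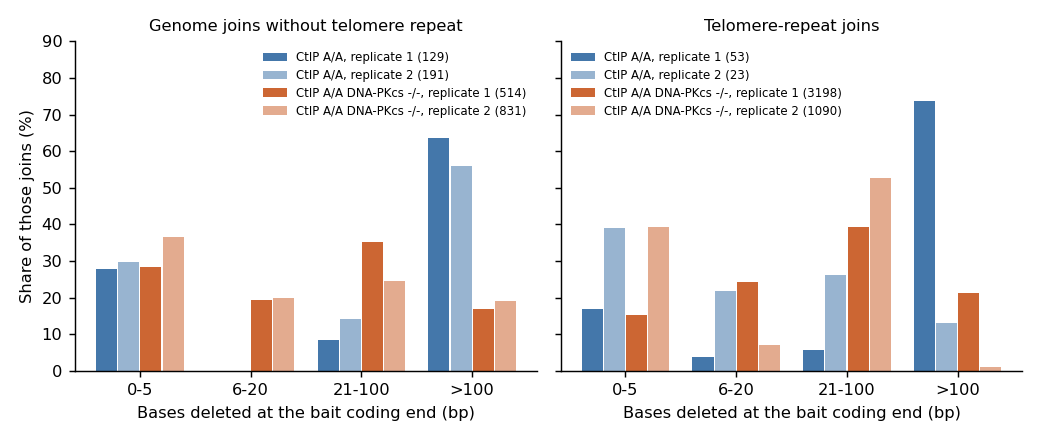
Share of joins (vertical axis, %) by bases deleted at the bait coding end (horizontal axis, classes in bp), for genome joins without telomere repeat and for telomere-repeat joins, with the number of joins of each library in brackets. Among genome joins the class from 6 to 20 bp is empty in both CtIP A/A libraries and holds 19.5% and 19.9% in the double mutants.

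The joints themselves were less different among genome joins than among coding joins. Insertions were present in 48.1% and 30.9% of genome joins with DNA-PKcs and in 29.4% and 29.6% without it, a difference of -9.99 points with a range of -18.7 to -1.29. The second CtIP A/A library lay close to the double mutants. Median insertion length was 6.5 and 8 bp against 4 and 4 bp. Microhomology was present in 43.4% and 58.1% against 59.1% and 50.1%, which overlapped (exact permutation p = 0.667). For genome joins with the bait end within 5 bp the shares of insertion did not overlap, with 18 of 36 and 23 of 57 (40.4%) against 32 of 146 (21.9%) and 85 of 304 (28.0%). The 304 include many joins of the chromosome 3 cluster described below, whose median bait deletion was 1 bp. That cluster carried insertions in 15.4%, against 33.6% in the other genome joins of its library. This subset was not compared without the cluster.

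The antigen receptor loci are the genomic places where RAG itself cuts. Together they held 8 of 129 (6.20%) and 7 of 191 (3.66%) genome joins with DNA-PKcs. They held 53 of 514 (10.3%) and 146 of 831 (17.6%) without it. The groups did not overlap, and the second double-mutant library was the highest. The difference was 9.01 points, with a range of 4.11 to 13.9. When telomere-repeat junctions were added to the denominator the means were 3.83% and 4.69% and the groups overlapped (exact permutation p = 1).

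The immunoglobulin κ locus, Igk (chromosome 6), held most of these joins. It received 3 and 5 joins with DNA-PKcs (2.33% and 2.62% of genome joins) and 49 and 119 without it (9.53% and 14.3%). The heavy chain locus Igh received 3 and 2 against 4 and 19, and the λ light chain locus Igl 2 and 0 against 0 and 3. Of the T cell receptor loci, Tcrg received 5 joins, all in the second double-mutant library. Tcra/Tcrd and Tcrb received 0 in all 4 libraries. Precursor B cells of this kind rearrange Igk when the Abl kinase is inhibited.

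Within Igk a part of the joins lay at the J segments, whose sequences are shown because their heptamers differ. Each line below gives the segment with its recombination signal on the plus strand of GRCm38, and the 7 capitals mark the heptamer next to the coding sequence, whose reverse complement is read from the coding side.
Igkj1, chr6:70722523-70722599: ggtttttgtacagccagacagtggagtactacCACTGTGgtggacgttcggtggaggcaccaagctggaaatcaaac
Igkj2, chr6:70722877-70722958: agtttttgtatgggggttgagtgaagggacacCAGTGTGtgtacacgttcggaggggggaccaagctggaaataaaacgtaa
Igkj3, chr6:70723184-70723260: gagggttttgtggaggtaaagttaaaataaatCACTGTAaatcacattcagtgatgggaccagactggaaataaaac
Igkj4, chr6:70723509-70723585: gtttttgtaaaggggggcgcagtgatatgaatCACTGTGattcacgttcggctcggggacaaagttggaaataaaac
Igkj5, chr6:70723847-70723927: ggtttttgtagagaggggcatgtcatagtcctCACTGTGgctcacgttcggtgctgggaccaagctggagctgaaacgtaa

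Igkj1, Igkj4 and Igkj5 share the heptamer CACTGTG. Counted from 1 at the first heptamer base, Igkj2 differs from it by C3G and Igkj3 by G7A. Igkj3 is the J segment known not to be used in mouse κ chains. It received 0 joins in all 4 libraries.

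Coding-side joins at the J segments numbered 1 and 2 with DNA-PKcs and 11 and 35 without it, and signal-side joins 1 and 1 against 1 and 13. Most of the 49 and 119 Igk joins of the double mutants thus lay away from the J segments. Igkj1 received the most, with 0 and 2 against 8 and 23 on the coding side. Igkj2 received 0 and 0 against 1 and 8, Igkj4 1 and 0 against 1 and 2, and Igkj5 0 and 0 against 1 and 2. With this few joins in CtIP A/A cells no pattern within the J segments can be compared between the genotypes. Joins to Igkj1 used 7 and 21 different bait ends in the double mutants, so most were separate events. Their median distance from the segment start was 5.5 and 10 bp.

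Another heptamer of the same sequence was joined 27.8 kb beyond Igkj5. It received 1 and 2 joins with DNA-PKcs and 0 and 2 without it.
Downstream site, chr6:70751740-70751800, plus strand: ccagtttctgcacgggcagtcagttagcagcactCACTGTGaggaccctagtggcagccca
Over Igk, 0.539% of 51991 windows of 61 bases held CACTGTG on the plus strand. This site was chosen after its joins were seen.

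Outside the antigen receptor loci, the largest gathering of genome joins lay in 1 library. The second double-mutant library held 182 joins on chromosome 3 between 107688062 and 107867659 (mm10), 21.9% of its genome joins. The other 3 libraries held 0 there, and the G1 library of the same genotype held 1. The joins lay at 174 different positions with 61 different bait ends, 108 on the plus strand and 74 on the minus strand. In all, 129 of the 182 lay within 5 kb of the median position. The gene Csf1, which encodes a macrophage growth factor, held 17 of them and Ahcyl1 held 2. Between Csf1 and the next gene, Eps8l3, lay 159.

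Joins of this cluster carried an insertion in 15.4% and microhomology in 74.2%, with a median bait deletion of 1 bp. The other 649 genome joins of the same library had values of 33.6%, 43.3% and 19 bp. Without the cluster, the difference in the antigen receptor share became 11.5 points in place of 9.01. The difference in genome insertions became -7.99 points in place of -9.99, and the groups then overlapped (exact permutation p = 0.667). A smaller cluster on chromosome 1 held 12 and 4 joins in the double mutants and 0 and 0 in CtIP A/A cells. The DNA-PKcs -/- libraries with wild-type CtIP also had clusters. The largest, on chromosome 2 in replicate 1, held 92 joins (27.4% of its genome joins), with microhomology in 76.1%. In replicate 2 a cluster on the X chromosome had microhomology in 0%.

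**Figure D5:**
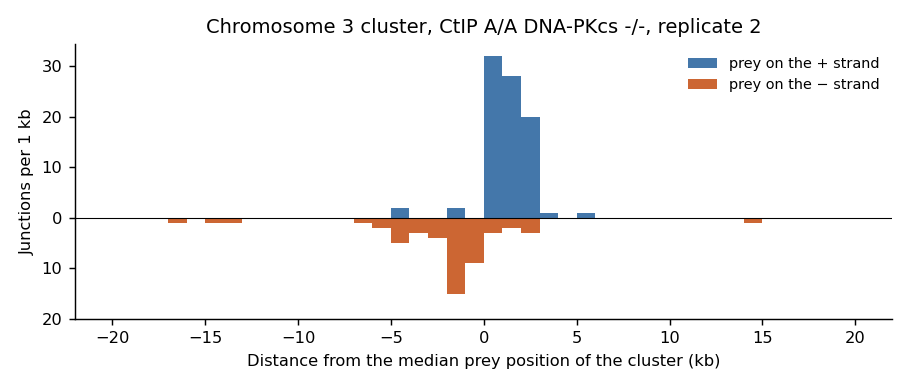
Junctions per 1 kb (vertical axis, plus strand upwards and minus strand downwards) by distance from the median prey position of the chromosome 3 cluster (horizontal axis, kb), in the second CtIP A/A DNA-PKcs -/- library. The distance from -20 to 20 kb is drawn and holds 137 of the 182 joins, with plus-strand joins mostly to the right of the median and minus-strand joins mostly to the left.

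Among 1 Mb bins with joins in at least 2 of the 4 libraries, which leaves out the bin of the chromosome 3 cluster, the 5 with the highest mean share of genome joins included a pair in Igk on chromosome 6. The bin with the J segments held 3 and 7 joins with DNA-PKcs and 26 and 75 without it, and the bin from 68000001 to 69000000 (mm10), among V segments, 0 and 0 against 15 and 23. The bin from 115000001 to 116000000 of chromosome 12, in Igh, held 3 and 1 against 1 and 1. A bin of chromosome 3 held 4 and 3 joins with DNA-PKcs and 0 and 0 without it. Its 7 joins lay between 95973480 and 95973535 (mm10), outside annotated genes, and used only 2 bait ends. A bin of chromosome 2 (98000001 to 99000000) held 1 and 2 against 4 and 7 joins, which is under 1.05% of genome joins in every library. Of 8 genes examined as possible translocation partners (Myc, Pvt1, Ccnd1, Ccnd2, Bcl6, Mycn, Notch1 and Pax5), Notch1 received 1 join, in the first CtIP A/A library. The others received 0 in all 4 libraries.

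The effect of DNA-PKcs loss was set beside the same contrast in G2 cells with wild-type CtIP, also 2 libraries against 2. For 8 measures the difference between the 2 effects was tested by permuting the CtIP labels within each DNA-PKcs state (36 arrangements, smallest possible exact permutation p 0.0556). No difference passed. The smallest exact permutation p was 0.222 and every adjusted p was 1.

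The substrate share differed by -43.0 points in CtIP A/A cells and by -43.2 points in wild-type cells, and direct joins by 19.4 and 19.6 points. Telomere repeats differed by 50.6 and 57.1 points. For deletions over 20 bp the differences were 27.1 and 40.6 points at the bait end and 29.0 and 35.96 points at the partner end. Insertions differed by -40.3 and -46.6 points and microhomology by 20.96 and 27.0 points. The antigen receptor share was the measure with the smallest p. It differed by 9.01 points in CtIP A/A cells and by -0.301 points in wild-type cells, where the 2 libraries with DNA-PKcs spread widely (6.47% ± 6.17, SD, n = 2). A test of this size does not show that the effects are alike.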

How the data were processed

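Per the labels' protocols, sonicated genomic DNA was amplified from a biotinylated bait primer and a nested primer, cut with BstBI against germline substrate and run on a MiSeq. Bowtie2 and mm10 are named in the submitters' processing notes, and the labels say that the substrate was added as an extra chromosome. For the calling of junctions and the handling of duplicates, no tool is named (not given in the sources used here). Deposited tables hold 1 junction per line (base positions, strands and read sequences, in no normalized unit, per the file headers). Every line had 0 in 8 of the filter columns. Lines with uncut bases numbered 22 in these 4 libraries and the shortest prey alignment was 25 bp. Genome alignments without a mismatch mark equalled GRCm38 in 99.9% to 100% of junctions.

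On each read, a gap between the bait alignment and the prey alignment was an insertion and an overlap was homology. Shares were computed per library, so each library counts once, with Python 3.11.15, pandas 2.3.3, numpy 2.4.6, scipy 1.17.1 and samtools 1.23.1. Substrate positions were tested with limma 3.58.1 in R 4.3.3. On simulated counts of the same depth, with an assumed spread, that step recovered 86.3% of positions changed 8-fold. The changed positions were drawn from those with at least 20 coding joins. Recovery of smaller changes or of positions with fewer joins was not simulated. Genes and loci came from GENCODE M21 and sequences from GRCm38.p6. Named positions were the 5 most used and the 3 largest rises and falls at each end, and named loci were the antigen receptor loci, the J κ segments, 8 partner genes and the 5 leading 1 Mb bins among those seen in 2 or more libraries. A J κ join lay from 5 bp outside to 50 bp inside a segment on its coding side, or in the mirrored window on its signal side. A cluster was a 200 kb window that held 10 or more junctions and 2% of genome joins.

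The read names show 2 sequencing runs, and replicate 1 of each genotype was in run 1 and replicate 2 in run 2. Replicate number and run therefore cannot be told apart. The measures, members and lists were chosen with earlier results of these data known. The 6 libraries with endonuclease breaks are not analysed here.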

Additional observations from a re-analysis of the deposited data

How the results depend on the processing

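Over 221 alternatives to the 19 measures, 214 kept the direction of the difference, and 15 measures kept it throughout. Part of this count was fixed in advance. The replicate block leaves each difference unchanged, and leaving out 1 library cannot change the sign of a measure without overlap. The difference in genome microhomology ranged from -3.51 to 11.2 points with 1 library left out, and that in telomere bait deletions over 20 bp from -22.1 to 18.02. With inserted joins left out, the microhomology difference was -0.550 and that in homology of 4 bp or more -2.35. With a window of 1000 bp on both sides of the partner end, which takes in the inverted bait, the latter was -2.71. Deletions over 200 bp have no value in a window of 200 bp.

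With the replicate number as a block, the differences of the 19 measures are the same by construction and the smallest exact permutation p is 0.5. For substrate positions the replicate block gave 23 calls, 22 of them among the 27. The deviations of replicate 1 in the 2 genotypes correlated at -0.127 over 71 positions, and the crossed pairing, added after seeing the data, gave 33 calls. Leaving out 1 library gave 13 to 39 calls.

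With 1 library left out, the difference between the CtIP A/A and wild-type effects changed sign for 4 of 8 measures. It ranged from -10.5 to 10.9 for the substrate share, -25.6 to 12.7 for telomere repeats, -2.30 to 1.91 for direct joins and -13.0 to 0.997 for microhomology. Of 206 alternatives for the 19 named positions, 187 kept the call, 19 lost it and 0 reversed it. Depth limits the CtIP A/A libraries most, with 129 and 191 genome joins and 53 and 23 telomere lines.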

Other observations

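Genome joins with exactly 2 telomere units numbered 4 and 4 in CtIP A/A cells and 144 and 124 in the double mutants, and they count as genome joins above. With a threshold of 2 units, added after seeing the data, the telomere-repeat share was 7.63% and 61.4% on average, a difference of 53.8 points. The antigen receptor share was then 4.80% and 17.3%.

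Inserted bases in coding joins were C in 38.2% and 37.7% and G in 28.0% and 30.3% with DNA-PKcs, against C in 33.2% and 36.2% and G in 35.9% and 30.9% without it. Coding joins with at least 1 heptamer base aligned at either side made up 36.4% and 36.7% with DNA-PKcs and 16.4% and 12.1% without it. With only joins whose ends both lay on the coding side of the heptamer, the insertion share was 66.3% and 22.9% on average and the microhomology share 16.2% and 38.7%.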
